A study of Rattus norvegicus with 9 samples.

Results

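Gldc, Ggh and Aldh1l2 are 3 genes of folate and glycine one-carbon metabolism, measured here in RN46A cells, a line derived from the rat raphe that its submitters call serotonergic. They were chosen by name from the authors' deposited lists of genes and transcripts, which were selected on the p-values of sodium valproate (VPA) against control, and matched by Ensembl identifier to a table of 32662 genes. All 3 had enough counts to be tested. The choice rests on the comparison of VPA with control in these same libraries, so the values of that comparison are given as a description, and nothing is read from their p-values. The authors' deposited DESeq2 table lists genes up to an adjusted p of 0.05 and holds all 3. The largest of their values there is that of Aldh1l2 (adjusted p = 1.1e-04, DESeq2), and it is part of the same choice.

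Tetrahydrofolate carries single carbon units between serine, glycine and formate, and these units feed nucleotide synthesis and the remaking of methionine. In mitochondria, Gldc encodes the glycine decarboxylase of the glycine cleavage system, which passes a carbon of glycine to tetrahydrofolate, and Aldh1l2 encodes the dehydrogenase that oxidises the formyl group of formyl-tetrahydrofolate to carbon dioxide while making NADPH. Ggh encodes gamma-glutamyl hydrolase, a lysosomal and secreted enzyme that trims the polyglutamate tail which holds folates in the cell. VPA, an antiepileptic and mood stabiliser that inhibits histone deacetylases, is linked to neural tube defects when taken in pregnancy, as is a low folate supply, and loss of Gldc gives neural tube defects in mice.

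Cells grown at 33 °C in 5% serum were differentiated for 72 h at 39 °C in 1% serum, then kept for 72 h with 0.5 mM VPA (3 libraries), with 0.5 mM lithium (3 libraries) or as controls (3 libraries). No agent is named for the controls beyond this shared culture. The cells are a single line, and the labels do not state that replicate libraries are separate cultures, so the spread behind each p-value may be technical. Polyadenylated RNA was sequenced without strand information, so a gene's reads cannot be told apart from those of an antisense neighbour.

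Reads assigned to genes numbered 9580591 to 13030300 per library, and 12719 genes were tested. Levels are counts scaled to library size (CPM) with edgeR's TMM factors and are not divided by gene length. By edgeR's quasi-likelihood test at an adjusted p under 0.05, 8.70% of tested genes were called between VPA and control, 0.00% between lithium and control and 7.93% between VPA and lithium. Markers were fixed for the cell types that such cultures could hold. A marker had a name only where the authors' deposited lists, picked by p-value in these libraries, gave it. That choice favours genes that differ between groups, so nothing is read from the direction of the marker sums or counts. In the neuronal list 6 of 8 genes had a name and counts, and their summed level ran from 81.4 to 89.4 CPM with VPA, 17.1 to 22.0 CPM with lithium and 14.0 to 24.8 CPM in control. For 6 of 7 fibroblast genes the sum was 470.5 to 741 CPM with VPA, 1212 to 2667 CPM with lithium and 1812 to 3644 CPM in control, with Lum at 0 counts in all VPA libraries and in lithium 3, and Dcn at 0 counts in VPA 3. Most of that sum was S100a4, at a mean of 488 CPM with VPA and 2220 CPM in control, and Pdgfra did not follow it, with means of 8.21 CPM with VPA, 3.12 CPM with lithium and 5.29 CPM in control. For 4 of 6 neural crest and Schwann cell genes it was 55.9 to 65.1 CPM with VPA, 14.4 to 15.9 CPM with lithium and 11.1 to 16.9 CPM in control, with Sox10 at 0 counts in control 1. In that list 3 genes rose with VPA and 1 fell, S100b, at 1.63 ± 0.208 CPM with VPA and 3.99 ± 0.660 CPM in control (SD, n = 3 each). Of 9 serotonergic markers Maob alone had a name, and it stood at 5.46 to 8.43 CPM with VPA, 0.693 to 1.21 CPM with lithium and 0.868 to 1.45 CPM in control, so the serotonergic label could not be checked further. Of 4 leucocyte markers Cd68 alone had a name, at 23.3 to 41.3 CPM with VPA, 12.0 to 20.9 CPM with lithium and 8.53 to 14.2 CPM in control. Of 5 astrocyte markers other than Gldc 0 had a name. Gldc is also on the astrocyte list and was left out of its count, being 1 of the 3 genes described here. A marker without a name was only missing from those lists, and its reads were not looked at here. The part of these cell types in the values below was not tested, and in bulk RNA fewer cells of a type and less RNA per cell cannot be told apart.

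The stretch before the start of Gldc is shown because it lies at the gene whose level rose with VPA and for which a promoter entry was held; Ggh and Aldh1l2 had none. Ahcyl2 and Phgdh, a rising and a falling gene of the wider pathway described below, are set beside it. Each line gives 250 bases before the RefSeq start on build GRCr8, 5′ to 3′ on the gene's strand, credited to RefSeq. Capitals mark a CCAAT box (CCAAT, or ATTGG on the other strand) or a GC box (GGGCGG, or CCGCCC on the other strand).
Gldc, chr1:237375605-237375854, minus strand: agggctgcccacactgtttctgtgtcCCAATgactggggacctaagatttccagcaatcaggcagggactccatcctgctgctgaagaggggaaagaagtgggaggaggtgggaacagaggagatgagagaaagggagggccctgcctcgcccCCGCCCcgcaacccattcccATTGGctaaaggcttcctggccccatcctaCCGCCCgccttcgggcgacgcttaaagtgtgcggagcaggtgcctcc
Ahcyl2, chr4:59348497-59348746, plus strand: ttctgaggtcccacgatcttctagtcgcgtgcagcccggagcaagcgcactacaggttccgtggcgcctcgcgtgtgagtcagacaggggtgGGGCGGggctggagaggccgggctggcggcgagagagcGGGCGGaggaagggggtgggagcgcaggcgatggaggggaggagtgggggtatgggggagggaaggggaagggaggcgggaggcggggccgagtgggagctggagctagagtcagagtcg
Phgdh, chr2:188624790-188625039, minus strand: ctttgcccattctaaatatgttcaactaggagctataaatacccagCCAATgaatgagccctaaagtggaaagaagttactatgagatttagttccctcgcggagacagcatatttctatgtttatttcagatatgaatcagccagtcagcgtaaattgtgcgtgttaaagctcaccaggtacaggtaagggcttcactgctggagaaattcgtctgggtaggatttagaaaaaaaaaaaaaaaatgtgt

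The Gldc window held 2 CCAAT boxes, 224 and 77 bases before the start, and 2 GC boxes, 97 and 47 bases before it. The Ahcyl2 window held 2 GC boxes and the Phgdh window 1 CCAAT box. Over 27457 promoters of the same length, 34.3% held a CCAAT box and 32.4% a GC box, on either strand. The motif TGATGNAAT, a form of the core of the element through which amino acid shortage acts on transcription, was in 0.929% of these windows and in none of the 3 shown. Other forms of that core were not searched, and no match says only that these letters are not in this window. The G and C content was 61.2% for Gldc, 70.0% for Ahcyl2 and 38.8% for Phgdh, against a median of 52.0% over all windows. The windows of Psph, which missed the threshold with VPA, and Slc6a9, which fell, are not printed; each had 58.4%, with 1 GC box for Psph and 2 for Slc6a9. CpG pairs numbered 9 for Gldc, 21 for Ahcyl2 and 5 for Phgdh, against a median of 6.

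Gldc rose with VPA in all 3 libraries. It stood at 16.6, 15.7 and 22.0 CPM in VPA 1, 2 and 3, at 5.08, 5.61 and 6.78 CPM in lithium 1, 2 and 3, and at 6.53, 5.10 and 7.11 CPM in control 1, 2 and 3. The lowest VPA library was above the highest of the other 6, and the lithium and control ranges overlapped. The counts behind these levels were 147 to 274 with VPA, 59 to 88 with lithium and 47 to 80 in control. Gldc averaged 18.1 ± 3.39 CPM with VPA and 6.25 ± 1.03 CPM in control (SD, n = 3 each), a log2 fold change of 1.53 ± 0.23 (SE), or 2.89-fold. Same-numbered VPA and control libraries differed by 1.32, 1.59 and 1.61 on the log2 scale. The gene (ENSRNOG00000011599) lies on chromosome 1 from 248297327 to 248377178 in the authors' deposited table, whose build is not given in the sources used here.

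The authors' deposited Salmon and sleuth table lists 2 Gldc transcripts, both higher with VPA. Converted from a natural log to log2, their effects were 1.94 ± 0.45 for ENSRNOT00000067612 and 1.26 ± 0.32 for ENSRNOT00000089073 (the authors' SE). The authors' deposited DESeq2 table gives a log2 fold change of 1.3 for the gene and the authors' deposited Cufflinks table a value of 1.38. The tables therefore share the direction of Gldc and differ in its size, with the transcript ENSRNOT00000067612 as the largest of these 4 values.

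Ggh rose as well. It stood at 11.4, 12.9 and 14.5 CPM in VPA 1, 2 and 3, at 4.31, 2.81 and 3.00 CPM in lithium 1, 2 and 3, and at 2.81, 5.32 and 2.93 CPM in control 1, 2 and 3. Control 2 was the highest library without VPA and still lay below the lowest VPA library. The counts were 120 to 180 with VPA, 32 to 50 with lithium and 31 to 49 in control. Ggh averaged 12.9 ± 1.53 CPM with VPA and 3.69 ± 1.41 CPM in control (SD, n = 3 each), a log2 fold change of 1.82 ± 0.29 (SE), or 3.52-fold. Same-numbered VPA and control libraries differed by 1.95, 1.25 and 2.23 on the log2 scale, the smallest being that of the pair with control 2. The authors' deposited tables give log2 values of 1.5 (DESeq2), 1.68 (Cufflinks) and 1.82 ± 0.32 (Salmon and sleuth, 1 transcript, converted to log2). Ggh (ENSRNOG00000007351) lies on chromosome 5 from 34040257 to 34063361 in the authors' deposited table.

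Aldh1l2 fell with VPA. It stood at 15.4, 13.4 and 9.48 CPM in VPA 1, 2 and 3, at 28.0, 33.3 and 27.3 CPM in lithium 1, 2 and 3, and at 32.4, 29.9 and 25.5 CPM in control 1, 2 and 3. Every VPA library was below every library of the other groups, and the lithium and control ranges overlapped. The counts were 118 to 197 with VPA, 325 to 380 with lithium and 275 to 357 in control. Aldh1l2 averaged 12.7 ± 3.00 CPM with VPA and 29.2 ± 3.48 CPM in control (SD, n = 3 each), a log2 fold change of -1.20 ± 0.21 (SE), or 0.436-fold. Same-numbered VPA and control libraries differed by -1.07, -1.15 and -1.41 on the log2 scale. The authors' deposited tables give -1.1 (DESeq2), -1.27 (Cufflinks) and -1.25 ± 0.23 (Salmon and sleuth, 1 transcript, converted to log2). Aldh1l2 (ENSRNOG00000008586) lies on chromosome 7 from 26375759 to 26428259 in the authors' deposited table.

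**Figure D1:**
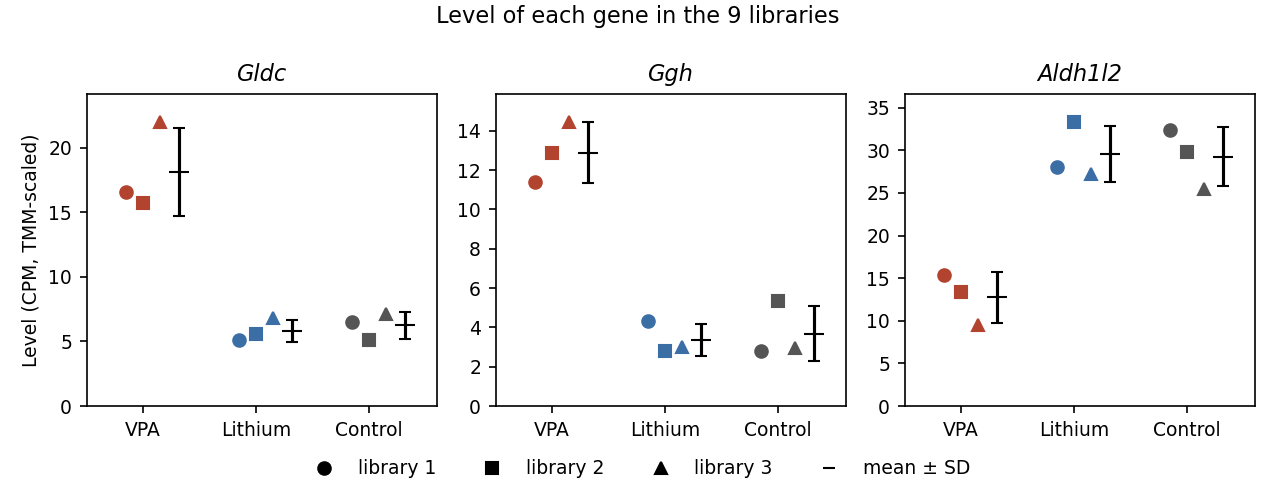
Level of Gldc, Ggh and Aldh1l2 in CPM (vertical axes from 0) in each of the 9 libraries; the marker shape gives the library number and the black bar the mean ± SD of a group (n = 3). VPA libraries lie above all others for Gldc and Ggh and below all others for Aldh1l2.

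All 3 genes, 2 higher and 1 lower, were called between VPA and control, where 5.71% of tested genes were called higher and 2.99% lower; since that comparison chose the genes, nothing is read from this count. The VPA and control libraries did not overlap for any of the 3, nor for 25.5% of tested genes. Among the 726 genes called higher with VPA, 281 had a larger fitted change than Ggh and 372 a larger one than Gldc. Among the 380 called lower, 157 had a larger change than Aldh1l2. The 3 genes were of low to middling abundance: 22.5% of tested genes had a lower mean level in CPM than Ggh, 28.1% a lower one than Gldc and 44.7% a lower one than Aldh1l2. VPA 3 had the highest Gldc and Ggh and the lowest Aldh1l2 of the VPA libraries. Once group means were taken away, the deviations of Gldc and Aldh1l2 over the 9 libraries had a correlation of -0.63, those of Gldc and Ggh one of -0.49, and those of Ggh and Aldh1l2 one of -0.28. These are descriptions of libraries that share depth and handling, with 6 residual degrees of freedom.

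Scaled for length, the order of the genes differed between the groups. The authors' deposited Cufflinks table gives 1 FPKM value (fragments scaled to transcript length and library size) per group, with no error. With VPA, Ggh was at 8.75, Gldc at 4.24 and Aldh1l2 at 3.41 FPKM, so Aldh1l2 was the lowest. In control, Aldh1l2 was at 8.20, Ggh at 2.73 and Gldc at 1.63 FPKM, so Aldh1l2 was the highest. Lithium has no value in that table.

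Lithium is the comparison that did not choose these genes, although it shares the control libraries with the one that did. In edgeR's quasi-likelihood test of lithium against control, 0 of the 12719 genes passed at an adjusted p under 0.05, 116 had an unadjusted p under 0.05, and DESeq2 called 0. Gldc averaged 5.83 ± 0.868 CPM with lithium and 6.25 ± 1.03 CPM in control (SD, n = 3 each). Its log2 fold change was -0.10 with a 95% interval of -0.67 to 0.47 (unadjusted p = 0.668, edgeR). Ggh averaged 3.37 ± 0.816 CPM with lithium and 3.69 ± 1.41 CPM in control (SD, n = 3 each), a log2 fold change of -0.12 with an interval of -0.86 to 0.62 (unadjusted p = 0.703, edgeR).

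Aldh1l2 averaged 29.5 ± 3.31 CPM with lithium and 29.2 ± 3.48 CPM in control (SD, n = 3 each), a log2 fold change of 0.01 with a 95% interval of -0.48 to 0.51 (unadjusted p = 0.946, edgeR). None of the 3 passed, and none was in the authors' deposited lithium table, which lists 137 genes up to an unadjusted p of 0.0499. A p that misses the threshold does not show that lithium left these genes as they were. The intervals do leave out changes of the size fitted with VPA for each of the 3 genes. Those fitted sizes come from the comparison that chose the genes and used the same control libraries, so nothing further is read from this.

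Set against each other at the same 0.5 mM for 72 h, the drugs differed in all 3 genes. The log2 fold change of VPA against lithium was 1.64 ± 0.23 for Gldc, 1.93 ± 0.29 for Ggh and -1.21 ± 0.21 for Aldh1l2 (SE). The VPA libraries are those that chose the genes, so these values are a description too. All 3 were called in edgeR's test, where 5.61% of tested genes were called higher and 2.32% lower. The groups did not overlap for any of the 3, nor for 29.2% of tested genes in this comparison.

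**Figure D2:**
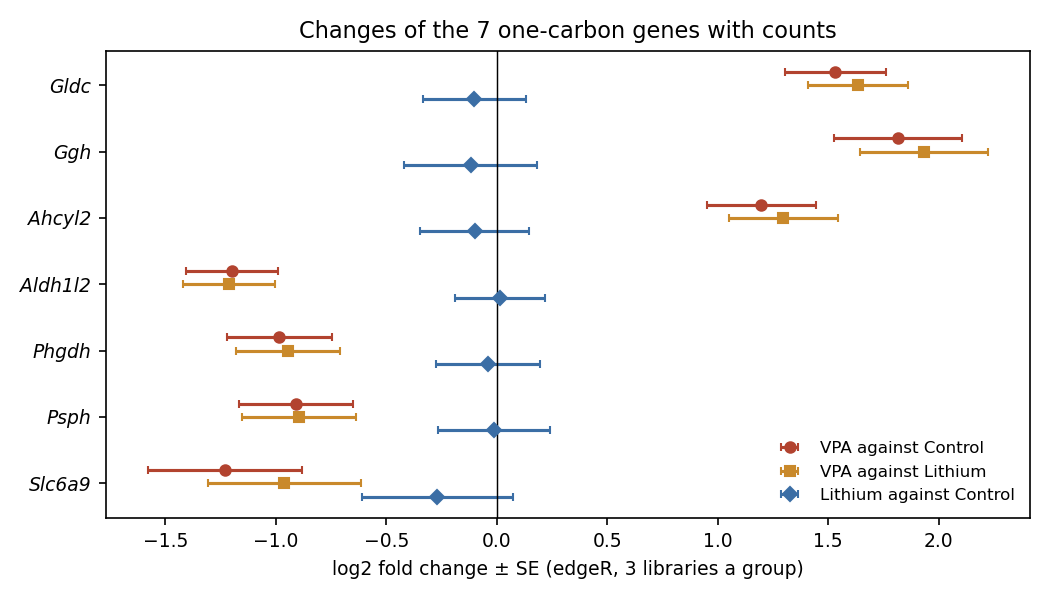
Log2 fold changes (horizontal axis, ± SE from edgeR's fit, 3 libraries a group) of the 7 one-carbon genes with an identifier and counts, for VPA against control, VPA against lithium and lithium against control. The first 2 comparisons give like values for each gene, from 1.93 for Ggh to -1.23 for Slc6a9, and lithium against control stays between -0.27 and 0.01.

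The wider pathway was read from lists of 26 folate cycle genes, 17 glycine and serine genes and 13 genes of methionine and transsulfuration, 56 in all. Only 7 of the 56 carried an identifier and counts, the 3 genes above and Ahcyl2, Phgdh, Psph and Slc6a9, since the authors named only genes that passed their own tests of these libraries. The other 49 could therefore not be matched to counts by name, and the counts are no share of the pathway. Of those, Shmt2, Mat2a and Gatm are described further on by FPKM values alone. Of the 7 tested, 3 rose, 3 fell and 1 missed the threshold with VPA, beside 5.71% called higher and 2.99% called lower over all genes, and nothing is read from this for the same reason. The number that fell was 2 to 4 under the 8 alternatives and 1 or 2 in each fit without 1 of the 9 libraries (1 without VPA 2, VPA 3 or control 2), while 3 rose in all of these. The median log2 fold change of the 7 was -0.91, and that of all 12719 genes -0.0096. With lithium 0 of the 7 passed, and their median was -0.10, against 0.0017 over all genes.

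Phgdh, the dehydrogenase of the first step of serine synthesis, which feeds the folate cycle, fell with VPA. It stood at 271, 264 and 192 CPM in VPA 1, 2 and 3, at 571, 439 and 390 CPM in lithium and at 374, 627 and 438 CPM in control 1, 2 and 3. The VPA libraries lay below all others, and control 2 and lithium 1 were the highest. The log2 fold change against control was -0.98 ± 0.24 (SE). By edgeR, the call of Phgdh did not hold without control 2 (adjusted p = 0.0726), VPA 1 (0.0532), VPA 2 (0.0632) or VPA 3 (0.0908), and over all alternatives, DESeq2 included, it ran from 0.00135 upwards to that last value.

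Psph, the phosphatase of the last step, stood at 46.4, 37.6 and 21.4 CPM in VPA 1, 2 and 3, at 68.7, 62.5 and 64.9 CPM in lithium and at 51.1, 79.8 and 67.0 CPM in control. The groups did not overlap, but VPA 1 and control 1 were close. Its log2 fold change against control was -0.91 ± 0.26 (SE), which did not pass (adjusted p = 0.0509, edgeR). It passed with the replicate number as a block over the 9 libraries (adjusted p = 0.0348, edgeR), without VPA 1 (0.0337), with no filter (0.00969) and with DESeq2 (0.0124), and its value there ran from -0.92 to -1.17. Psph also passed with median-ratio scaling (edgeR adjusted p = 0.0499) and with the block on the VPA and control libraries alone (0.0377). Over all alternatives the edgeR or DESeq2 adjusted p of Psph ran from 0.00969 to 0.135.

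Slc6a9 encodes a glycine transporter of the plasma membrane that takes up glycine with sodium and chloride. It stood at 43.2, 40.4 and 14.0 CPM in VPA 1, 2 and 3, at 58.8, 71.1 and 60.1 CPM in lithium and at 68.2, 59.9 and 101 CPM in control. VPA 3 was far below the other VPA libraries and control 3 far above the other controls. The log2 fold change against control was -1.23 ± 0.35 (SE), called at the edge of the threshold (adjusted p = 0.0496, edgeR). The call was lost without any 1 of the 9 libraries (edgeR adjusted p = 0.05 to 0.135), and the log2 change was -0.87 without VPA 3 and -0.97 without control 3. In a fit of the VPA and control libraries alone it was not called with the block (edgeR adjusted p = 0.224) or without it (0.067), and over all 9 libraries it was called with the block (0.0445), while DESeq2 gave the lowest adjusted p of any alternative, 0.00649. Slc6a9 was also not called when scaled by totals (edgeR adjusted p = 0.0582), with no filter (0.0786) or with the filter of 1 CPM in 3 libraries (0.0508).

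Ahcyl2, a homologue of the hydrolase that splits S-adenosylhomocysteine, rose with VPA. It stood at 65.9, 46.5 and 76.9 CPM in VPA 1, 2 and 3, at 20.1, 26.9 and 30.0 CPM in lithium and at 33.5, 20.5 and 28.5 CPM in control. The lowest VPA library was above every other library. The log2 fold change was 1.20 ± 0.25 against control and 1.30 ± 0.25 against lithium (SE).

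**Figure D3:**
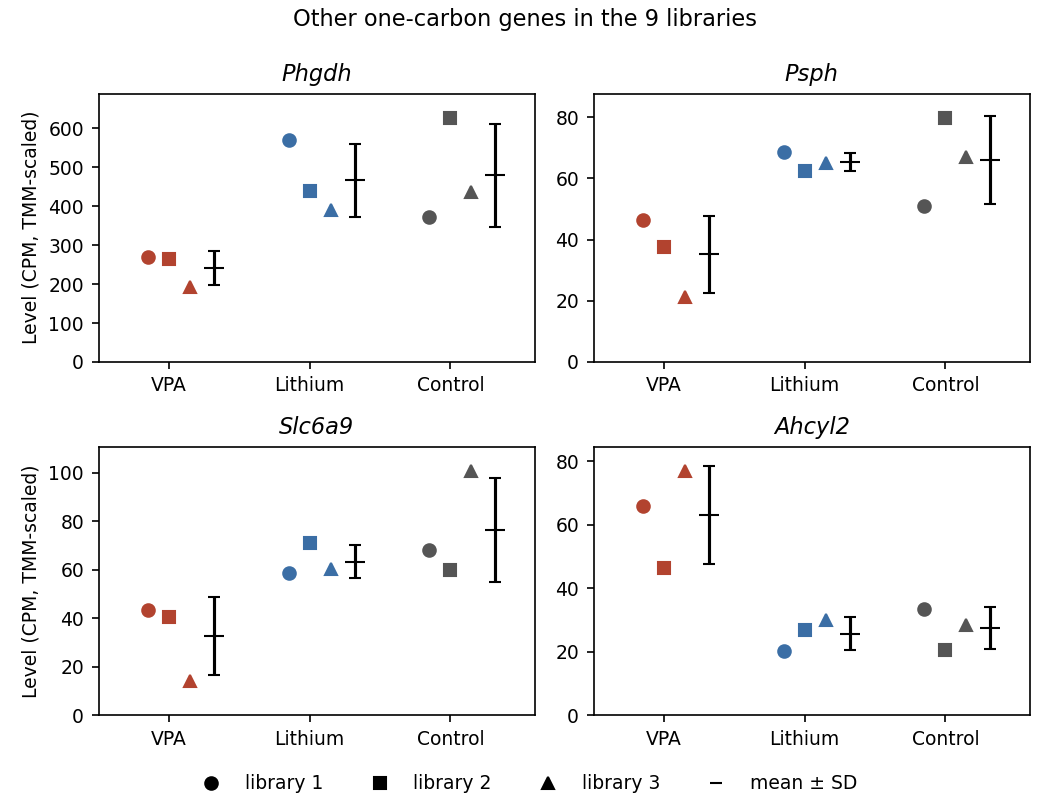
Level in CPM (vertical axes from 0) of Phgdh, Psph, Slc6a9 and Ahcyl2 in each of the 9 libraries; the marker shape gives the library number and the black bar the mean ± SD of a group (n = 3). VPA 3 is the lowest of all libraries for Phgdh, Psph and Slc6a9 and the highest for Ahcyl2.

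The authors' deposited Cufflinks table adds genes of these lists that carry no Ensembl identifier there and so no counts here. They were named after their values were seen. It lists 10 of the 56 one-carbon genes, 4 higher and 6 lower with VPA, where 41.9% of its 1097 genes were lower. In that authors' deposited table Shmt2, the mitochondrial enzyme that moves a carbon of serine to tetrahydrofolate, was at 47.2 FPKM with VPA and 85.2 FPKM in control. Mat2a, which makes the methyl donor S-adenosylmethionine, was at 136 FPKM with VPA and 261 FPKM in control in the authors' deposited table. Gatm, which joins glycine to the creatine pathway, was at 38.8 FPKM with VPA and 24.0 FPKM in control, again in the authors' deposited table. The 6 lower genes were thus Aldh1l2, Phgdh, Psph, Shmt2, Slc6a9 and Mat2a, and the 4 higher ones Ggh, Gldc, Ahcyl2 and Gatm.

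**Figure D4:**
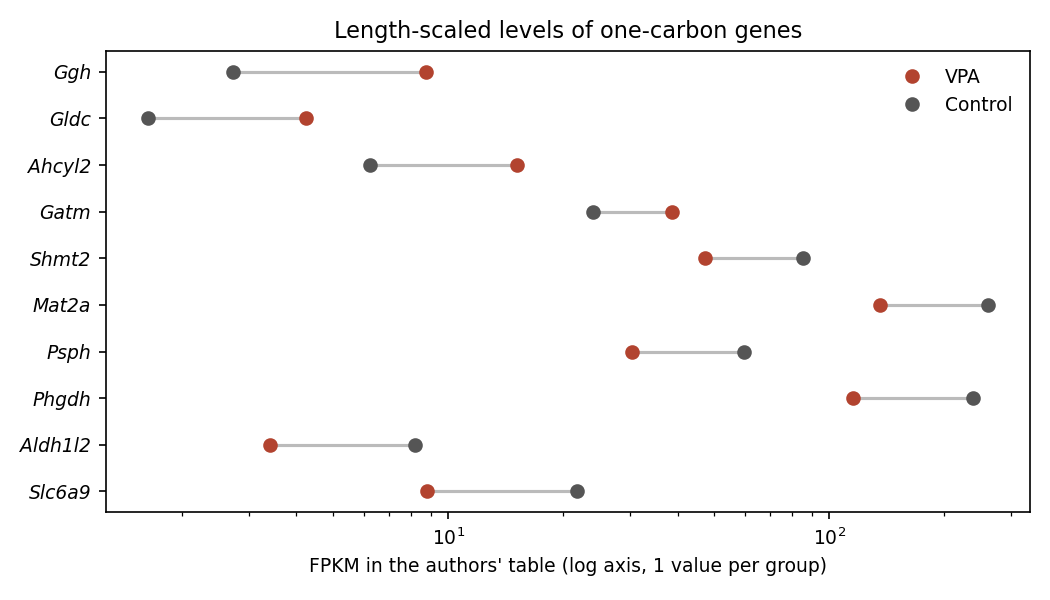
FPKM (horizontal log axis) of the 10 one-carbon genes in the authors' deposited Cufflinks table, with VPA in red and control in grey, 1 value per group and no error. Control values span 1.63 for Gldc to 261 for Mat2a, and Aldh1l2 lies below Ggh and Gldc with VPA and above both in control.

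Aldh1l2, Phgdh and Shmt2 also belong to a list of 26 genes raised by amino acid shortage through the transcription factor ATF4. Of that list 2 carried an identifier that could be matched to counts, Aldh1l2 and Phgdh. Both fell with VPA, beside 2.99% of all tested genes called lower, and the call of Phgdh did not hold in the 4 fits named above. The authors' deposited Cufflinks table lists 5, all lower with VPA, where 41.9% of its genes were lower. These genes are seen here because they passed the authors' own tests of VPA, so nothing is read from the counts. Besides those 3 they were Cebpb, a transcription factor at 65.1 FPKM with VPA and 120.4 FPKM in control in the authors' deposited table, and Stc2, a secreted glycoprotein at 5.39 FPKM with VPA and 8.70 FPKM in control. The list shares Aldh1l2, Phgdh, Shmt2, Psat1, Mthfd2 and Cth with the lists above, so these counts are not separate from them.

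For each gene, the named genes with the most similar pattern over the 9 libraries were sought by Pearson correlation of log2 CPM among 1223 genes with a symbol and a mean of at least 1 CPM. A symbol was held only for genes in the authors' deposited lists, picked by p-value in these libraries. Neighbours that differ with VPA were therefore favoured in advance. The VPA libraries form a group apart, so these correlations mostly restate that difference, and the correlation of the deviations from group means is set beside each. The deviations are part of the pattern by which the neighbours were picked, so they are no separate support. For Gldc the nearest were Plxdc1, a membrane protein with a plexin domain (r = 0.997, deviations 0.983), Sipa1l2, an activator of Rap GTPases (0.993, deviations 0.944), and Rab6b, a small GTPase of the Golgi (0.992, deviations 0.962). For these, VPA 3 was the highest and control 2 the lowest library in its group, as for Gldc.

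For Ggh they were Ppm1j, a protein phosphatase (r = 0.986, deviations 0.944), Gli1, the hedgehog pathway transcription factor (0.985, deviations 0.850), and Rasgrp2, an exchange factor for Rap (0.981, deviations 0.843). In all 3, as in Ggh, control 2 was the highest control. Gli1 was at only 0.181 CPM in its lowest library, about 2 counts. For Aldh1l2 they were Rcbtb2 (r = 0.973, deviations 0.879), the beta-galactosidase relative Glb1l (0.969, deviations 0.822) and Nmi, which binds Myc and STAT proteins (0.969, deviations 0.753). By Spearman correlation none of the 9 stayed among the 3 nearest, with values of 0.800 to 0.983, so the choice of neighbours depends on the measure.

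**Figure D5:**
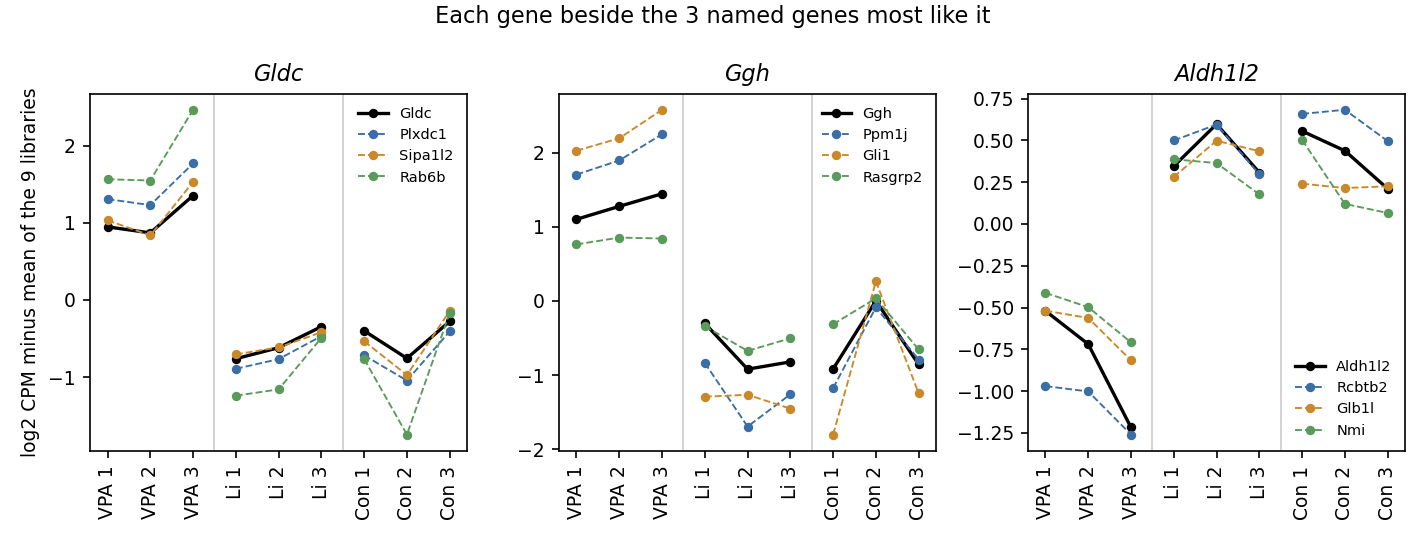
Log2 CPM minus its mean over the 9 libraries (vertical axis) for each gene in black and the 3 named genes most like it in colour, with libraries of VPA, lithium (Li) and control (Con) along the horizontal axis; lines join libraries of a group only as a guide. Each gene and its neighbours share the separation of the VPA libraries, which the choice of named genes favoured in advance. Gldc and its neighbours are lowest among controls in control 2.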

How the data were processed

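The authors deposited raw counts per Ensembl gene, whole numbers with 0 lines that name no gene, titled as HTSeq counts. The authors' deposited DESeq2 table gives log2 fold changes of VPA over control, their standard errors (taken here as a score), mean normalized counts (a signal) and p-values, per the file headers. In the deposited Cufflinks table each group has 1 FPKM value, and its log2 ratios of control over VPA were turned round here. The deposited Salmon and sleuth effects are on a natural log scale (their median ratio to the Cufflinks log2 values was 0.697 over 564 genes) and were converted to log2. A table titled for kallisto repeats the DESeq2 table in all 1212 lines and was not used, nor were 6 columns of normalized counts in the lithium table. The submitters' processing notes name, with no role for any, STAR 2.5.1, Cufflinks 2.2.1, Salmon 0.6.1, kallisto 0.42.4, CASAVA 1.8, sleuth and DESeq2; the build is not given in the sources used here.

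Counts were tested in R 4.3.3 with edgeR 4.0.16. TMM factors and filterByExpr with a minimum count of 10 were used, group means over 9 libraries were fitted by robust quasi-likelihood, tests were two-sided, and p-values were adjusted by Benjamini-Hochberg over 12719 genes. SE is the log2 change over the square root of F, and 95% intervals use 6 residual degrees of freedom. The common biological coefficient of variation was 0.22. By library total, a single count equalled 0.0767 to 0.104 CPM. Library pairs of a group differed by more than counting noise (chi-square per degree of freedom 28.8 to 73.1). VPA and control libraries with the same title number deviated together (correlations 0.600, 0.533 and 0.525 over 10288 genes), so the numbers were taken as pairs in a blocked alternative; lithium 1 and 2 did not pair with control (-0.418 and -0.0815). Alternatives were median-ratio scaling, totals, no filter, 1 CPM in 3 libraries, DESeq2 1.42.0, the replicate block, 2 groups alone and each library left out. Members, lists and the naming rule (the 3 genes, tested genes of the one-carbon lists, up to 6 of the amino acid response list by p, and the 3 nearest genes of each member) were chosen with earlier results of these data known.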

Additional observations from a re-analysis of the deposited data

How the results depend on the processing

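Gldc, Ggh and Aldh1l2 kept their direction and their call for VPA against control and for VPA against lithium under each of 8 alternatives and in each of the 9 fits that left out 1 library. These fits reuse libraries that chose the genes, so the kept calls are a description and no separate support. For VPA against control the fits without 1 library gave log2 changes of 1.37 to 1.64 for Gldc, 1.65 to 2.15 for Ggh and -1.36 to -1.02 for Aldh1l2. For lithium against control 0 genes were called in every setting run. Leaving out 1 library moved the sign of lithium values near 0: Ggh ran from -0.35 to 0.21 (positive without control 2), Aldh1l2 from -0.082 to 0.094 (negative without lithium 2 or control 3), Phgdh from -0.23 to 0.18, Psph from -0.17 to 0.13 and Ahcyl2 from -0.29 to 0.064. Psph for lithium against control was also positive when scaled by totals (0.016) and with the block on 2 groups (0.0099). Genes called between VPA and control numbered 1741 with the replicate block and 1106 without it over all libraries, and 2408 with the block and 862 without it on the 2 groups alone. Between VPA and lithium they numbered 1609 with the block and 1009 without it over all libraries, and 1318 with the block and 1197 without it on the 2 groups alone. Without 1 library they ran from 638 to 1026 for VPA against control and from 544 to 1197 for VPA against lithium. Over all libraries the block changed 1 call of the one-carbon lists for VPA against control, that of Psph, which passed with it. The controls of Ggh held 31 to 49 counts, so its control level rests on few reads.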
